A study of Gossypium hirsutum with 3 samples.

Results

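Transcription factor genes of families other than MYB were compared between 1 dpa fiber initials and 1 dpa ovules of upland cotton (dpa, days post anthesis, counts days from the opening of the flower). Members were chosen by words in the descriptions that the study gave to its tabulated genes, among them homeobox, homeodomain, MADS, bZIP, AP2, NAC domain, zinc finger, DNA-binding and transcription factor. MYB genes, GLABRA-like and CAPRICE-like trichome regulators, auxin and phytochrome genes, RING proteins and kinases were left out, which removed 9 genes that carried 1 of the words. This gave 36 of the 11143 genes on the arrays, and 36 of 36 had at least 1 spot above background in both RNAs on all 3 arrays. The words WRKY, bHLH and scarecrow were found in 0 descriptions.

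The study tabulated genes that varied over 2 fold between 1 dpa fiber and ovules or between 1 dpa fiber and older fiber, so the members were selected on values of these same arrays. The ratios, calls and medians of members below are therefore a description and carry no test. Members near a ratio of 0 could have entered the table through the comparison with older fiber, whose arrays were not analysed here.

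Transcription factors bind DNA and raise or lower the transcription of other genes, and plants hold them in large families named after the fold that contacts DNA. Homeodomain factors of the KNOX family act in meristems (class I) or in differentiating organs (class II, to which KNAT3 of Arabidopsis belongs), those of the GL2 class act in the epidermis, and MADS factors specify floral organs and ovules. NAC factors mark boundaries between organs, bZIP factors answer light, stress and sugar signals, AP2/ERF factors answer ethylene and drought, and PHD finger proteins read marks on histones. Cotton fibers are single cells that grow out of the ovule epidermis, and whole ovules hold these cells together with integuments, nucellus and the other cells of the ovule.

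RNA of fiber initials was obtained from frozen 1 dpa ovules that were shaken with glass beads, and RNA of ovules from intact 1 dpa ovules. The methods name field grown plants of the cultivars DES119 and ST4793R, and which of them gave the RNA of each array is not stated. The methods of the study describe polyribosomal RNA harvested on different days, whereas the sample labels give total RNA as the molecule. Each of 3 arrays received 1 fiber and 1 ovule RNA in 2 dyes, so that n = 3 counts arrays and no error given reaches beyond these arrays. Each SE is limma's moderated error, which draws the spread of a gene between arrays toward a spread shared over all genes. It can therefore be larger than the plain error of a gene with steady arrays and smaller for a gene whose arrays disagree. Each SD is the plain one over the 3 arrays. Median background-subtracted signals were 249, 213 and 182 in green and 311, 270 and 131 in red on arrays 1, 2 and 3. No member had a saturated spot. The 314 negative control spots had median green signals of 82.8, 42.8 and 38.7 on the same arrays, so that weak genes stood close to them. Green spots were called by the flag of the scanner files, and by the limit used for red 1 member, HYP7_01-01-27R_B01, fell under it in green on array 1 (94.2 against 95.9).

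By the labels, green held fiber on arrays 1 and 2 while red held it on array 3. Each spot also carries a code for the RNA in either colour. An SP2 code (SP2A, SP2C) stands for green on arrays 1 and 3 and an SP1 code (SP1E) on array 2, which makes array 2 the dye swap. Red over green ratios correlated across all genes with -0.580 between arrays 1 and 2, 0.522 between arrays 1 and 3, and -0.810 between arrays 2 and 3. For this reason the codes were used to turn the arrays, and each value below is a log2 ratio with the SP2 RNA over the SP1 RNA. Such a value means fiber over ovule where the label of array 1 is right, and its sign turns where those of arrays 2 and 3 are right. Arrays 1 and 2 share the code SP2A, and it is not certain that they held separate harvests.

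Genes of known cells were read on the same scale. They were picked by hand with earlier results of these data known, so their counts are a description and carry no test. Of 5 genes known from fiber initials, 2 were called higher in the SP2 RNA, MYB109 with 1.29 ± 0.27 (SE, n = 3) and GhFDH, of cuticle synthesis, with 1.17 ± 0.25, and 0 were called lower. GhACY had -0.73, 1.84 and 1.78 on arrays 1, 2 and 3 with a mean of 0.96 ± 0.49. MYB2 had 0.60 ± 0.21 and GhRDL, saturated in SP2 on each array and in SP1 on 1, had 0.37 ± 0.17, and none of these was called. The means of all 5 fiber genes were above 0 in the SP2 RNA, the RNA that the label of array 1 names fiber, with GhACY below 0 on that array. Of 3 genes of dividing cells, 3 were lower in the SP2 RNA, with values between -3.67 and -2.16 on single arrays. They were histone H4 (-2.26 ± 0.14, saturated in the SP1 RNA on 2 arrays), histone H2A (-2.28 ± 0.14) and topoisomerase II (-3.33 ± 0.18). In these mixed RNAs fewer cells that express a gene and less of its RNA per cell cannot be told apart, and the part of cell types in the ratios of the members was not tested.

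Transcription factor genes were more often lower than higher in the SP2 RNA. Of 36 members, 17 were lower, 5 were higher and 14 were not called at an adjusted p under 0.05 from limma's moderated test over 11081 genes. With the deposited ratios 8 were lower and 3 higher, and with the ordinary test, which does not moderate the error, all calls were lost (0 lower and 0 higher, with 17 and 3 at an unadjusted p under 0.05). Over all genes tested, 8.31% were lower and 3.95% higher. At the threshold used in the study, which asks for 2 fold and an unadjusted p up to 0.05, 17 members were lower and 4 higher, where 4.73% of all genes were lower and 1.73% higher. These shares stand beside the counts only as background, because the table from which members came held genes picked for such differences. Among the other 1001 tabulated genes tested, 280 were lower and 315 higher. The median ratio was -0.52 for the members, 0.22 for the other tabulated genes and 0.04 for all genes. On arrays 1, 2 and 3 the median of the members was -1.17, -0.90 and -0.26.

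**Figure D1:**
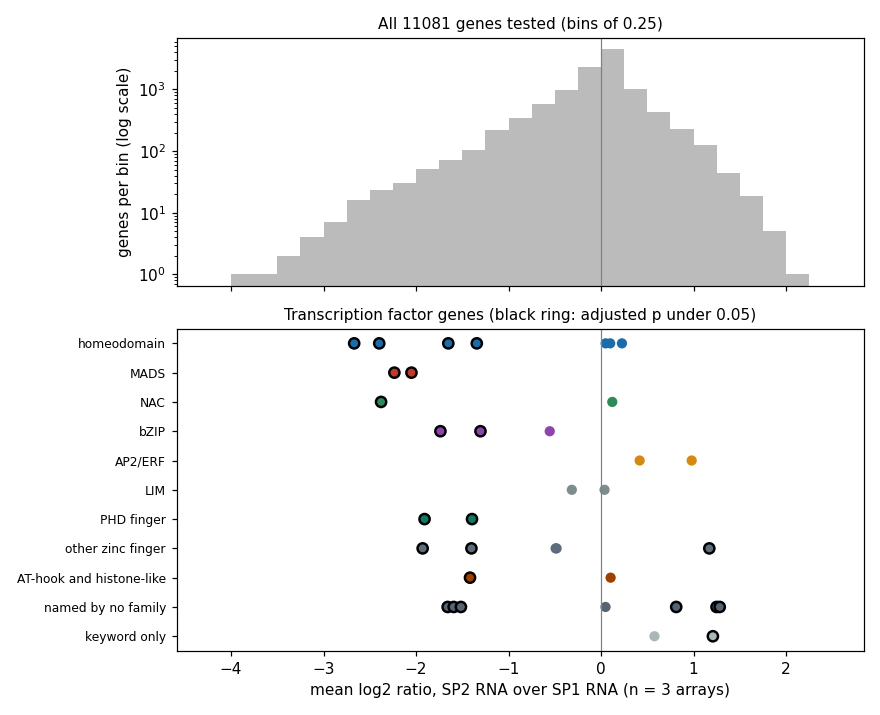
Mean log2 ratio of SP2 RNA over SP1 RNA (x axis, n = 3 arrays) of all 11081 genes tested (top, number of genes per bin on a log scale) and of each transcription factor gene by family (bottom, 1 point per gene, black ring where the adjusted p was under 0.05). The 17 genes called lower lie between -2.67 and -1.30, the 5 called higher between 0.81 and 1.28, and most genes of the array lie near 0.

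Few members lay between the called ones and those near 0 on the lower side. Members came from a table of genes past 2 fold in this or the other comparison. The part of that cut in the gap was not tested. Means of called members ran from -2.67 to -1.30 on the lower side and from 0.81 to 1.28 on the higher side. Just past 2 fold stood Contig8766 (-1.30) and TMIRS_072_C09.F (1.17), and the nearest members outside it were HYP7_01-01-27R_B01 (-0.55), well short of 2 fold, and TMIRS_117_D04.F (0.98). In 26 members (72.2%) the 3 arrays had 1 sign, where 44.0% of all genes tested and 81.2% of the other tabulated genes had. Among the remaining members array 1 ran against arrays 2 and 3 in 5, array 2 against the other arrays in 1, and array 3 in 4.

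**Figure D2:**
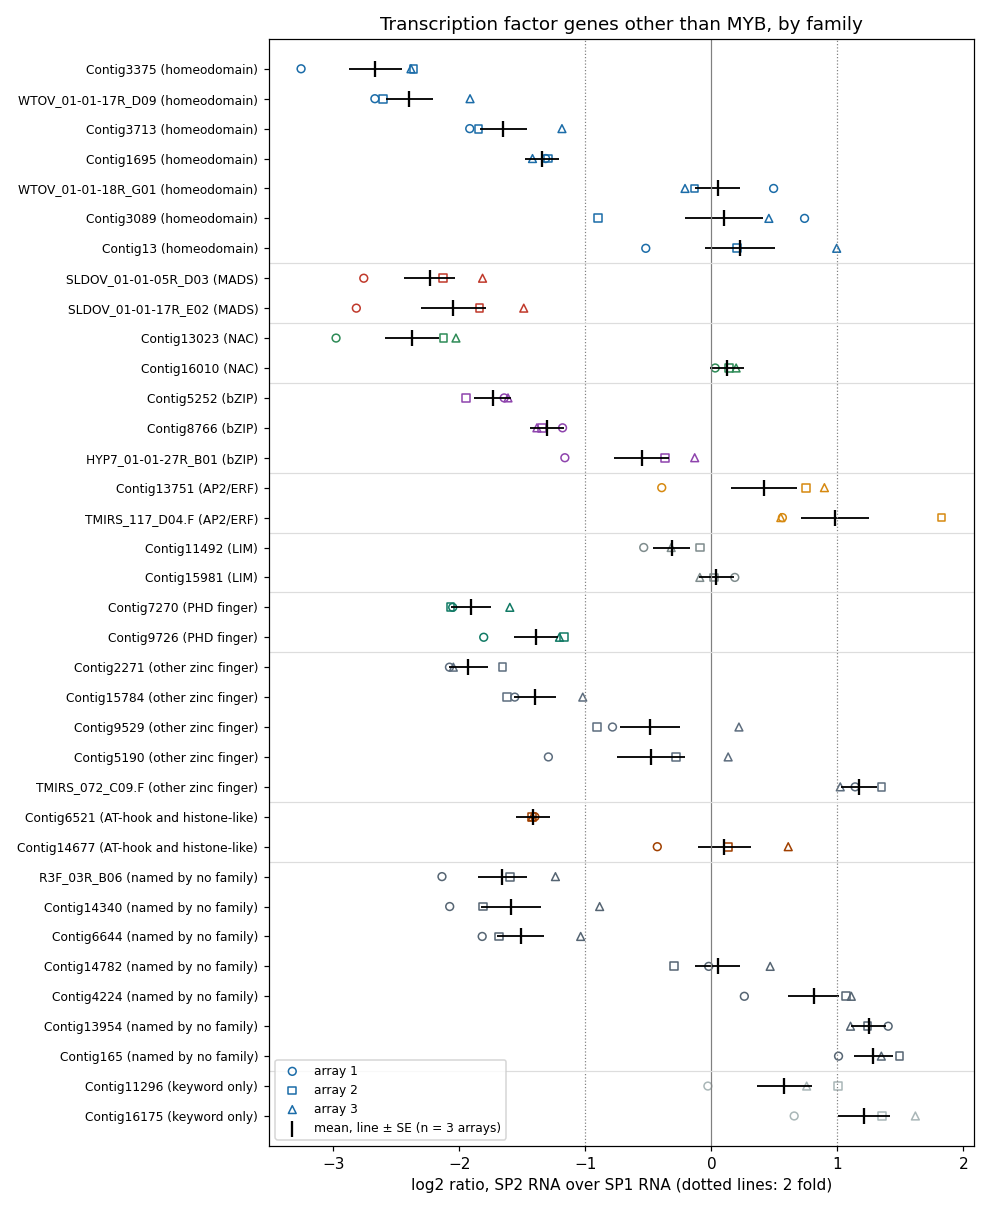
Log2 ratio of SP2 RNA over SP1 RNA (x axis) of the 36 members, 1 per line and grouped by family, with the values of arrays 1 to 3 as open symbols and the mean with its moderated SE as a black mark. Both MADS genes and both PHD finger genes lie left of the dotted line at 2 fold on every array, while the homeodomain, NAC, bZIP and AT-hook groups each hold both genes far below 0 and genes near 0 or short of 2 fold.

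Homeodomain genes were the largest family, with 7 members, of which 4 were lower and 3 not called. The BEL1-related homeodomain gene Contig549, which the words missed, is not counted here (0.12 ± 0.17, SE, n = 3, not called). Both KNOX genes, similar to KNAT3 of Arabidopsis, were lower. Contig3375 had ratios of -3.26, -2.36 and -2.38 on arrays 1, 2 and 3, a mean of -2.67 ± 0.21 (SE, n = 3) and a fold of 6.36, which was the lowest mean of any member. Its background-subtracted signals in the SP2 RNA were 338, 369 and 170, and in the SP1 RNA 3334, 1401 and 855. The SP1 signal was thus the higher one on every array, and the weakest of the 3 lay above the strongest SP2 signal. The second gene, Contig3713, had -1.92, -1.85 and -1.19, with a mean of -1.65 ± 0.18. Contig3375 was the lower of both on each array, with a mean difference of -1.02 ± 0.44 (SD, n = 3), and the array values of these genes did not overlap.

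A homeobox singleton, WTOV_01-01-17R_D09, whose description gives no class, had -2.67, -2.61 and -1.92 with a mean of -2.40 ± 0.19 (SE, n = 3). Its signals were 407, 388 and 170 in the SP2 RNA and 3118, 1714 and 622 in the SP1 RNA. All 3 of its probes were lower.

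Zinc finger homeodomain proteins pair a zinc finger with the homeodomain and act in flower development in Arabidopsis. Contig1695 of this class had -1.32, -1.29 and -1.42, with a mean of -1.34 ± 0.13 (SE, n = 3). The arrays lay close together, but the signals in the SP2 RNA were weak, at 188, 86.5 and 78.0 against 569, 247 and 229 in the SP1 RNA, and its 4 probes ran from 0.03 to -2.26. The other gene of the class, the singleton WTOV_01-01-18R_G01, had 0.49, -0.13 and -0.21 and was not called (0.05 ± 0.18), on 1 probe. The array values of both genes did not overlap, and the difference was -1.39 ± 0.36 (SD, n = 3).

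GL2-class proteins join a homeodomain to a lipid-binding domain, and GLABRA2, after which they are named, acts in leaf trichomes and root epidermis of Arabidopsis. Neither member of this class was called, and genes described as GLABRA-like were left out by the choice of members. Contig13, similar to homeobox 1 of spruce, had -0.52, 0.21 and 0.99 with a mean of 0.23 ± 0.28 (SE, n = 3). Contig3089, similar to roc1 of rice, an epidermal gene of that plant, had 0.74, -0.90 and 0.46 with a mean of 0.10 ± 0.31. The sign of both genes changed between arrays, and their array values overlapped. For Contig3089 the normalized red over green ratios were -0.74, -0.90 and -0.46, so green was the higher colour on all 3 arrays whichever RNA it held. Before normalization its colours were level on array 2, with signals of 2838 in red (SP2) and 2837 in green (SP1). Contig3089 was the only member with the same colour higher after normalization on all arrays, 2.78% of members, where 11.9% of all genes behaved so. A dye effect of its probes was not tested.

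**Figure D3:**
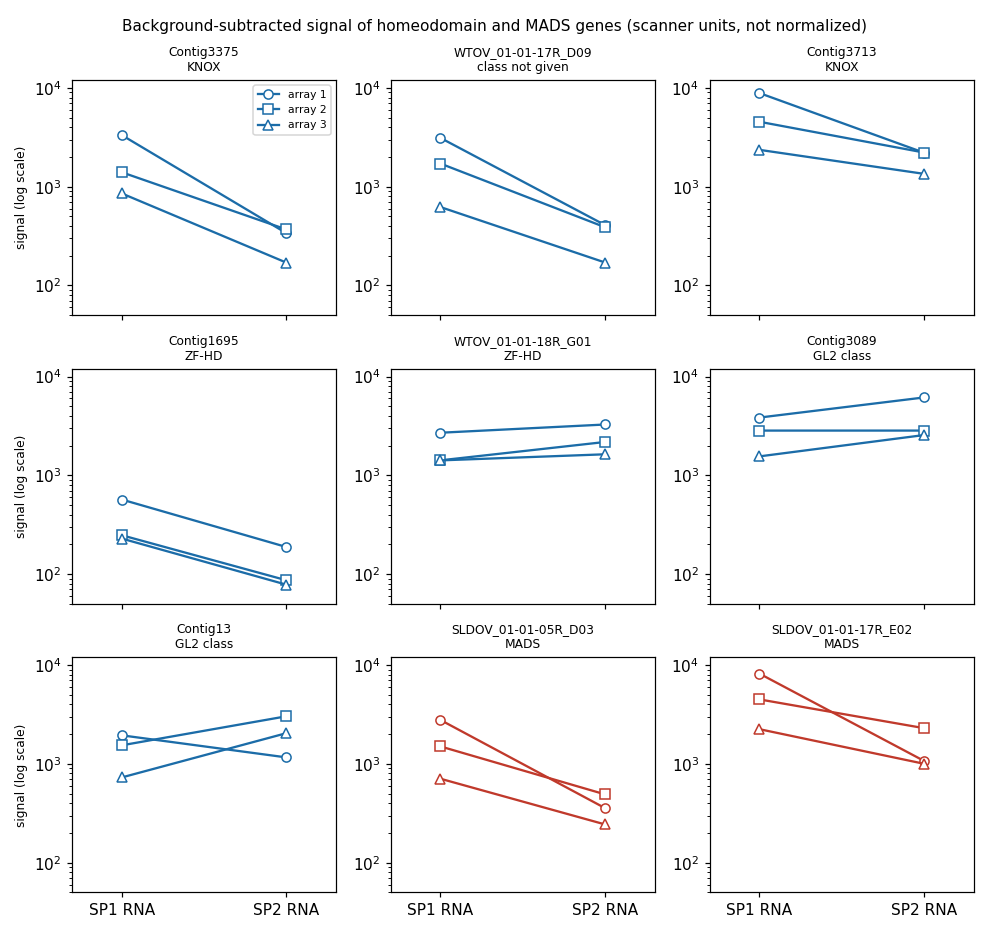
Background-subtracted signal in scanner units, not normalized (y axis, log scale), of the 7 homeodomain and 2 MADS genes in the SP1 and the SP2 RNA, with a line per array. The KNOX genes, the homeobox singleton, Contig1695 and both MADS genes fall from SP1 to SP2 on every array, whereas lines of the GL2-class genes run in different directions or stay level.

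Both MADS genes, of the family that specifies floral organs and ovules, were lower in the SP2 RNA. The MADS-domain singleton SLDOV_01-01-05R_D03 had -2.76, -2.13 and -1.82 and a mean of -2.23 ± 0.20 (SE, n = 3), on 1 probe. Its signals were 356, 491 and 244 in the SP2 RNA and 2787, 1504 and 708 in the SP1 RNA. SLDOV_01-01-17R_E02, similar to MdMADS8 of apple, had -2.82, -1.84 and -1.49 with a mean of -2.05 ± 0.26, and all 3 probes were lower. The values of these genes overlapped between arrays, and the difference between them, -0.18 ± 0.21 (SD, n = 3), was smaller than its spread. The call of SLDOV_01-01-17R_E02 was lost on median centring, as it was on the deposited ratios. On each array both MADS genes were lower than the median of the homeodomain genes, which was -1.32, -1.29 and -1.19.

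The NAC genes differed from each other. Contig13023, described as a NAM protein after the petunia gene that keeps organ boundaries apart, had -2.98, -2.13 and -2.03 with a mean of -2.38 ± 0.21 (SE, n = 3; 5.20-fold). Its signals were 588, 447 and 178 in the SP2 RNA against 5710, 1515 and 746 in the SP1 RNA. Contig16010 had 0.03, 0.14 and 0.20 with a mean of 0.12 ± 0.13 and was not called. The gap between both genes was -2.50 ± 0.44 (SD, n = 3), and their array values lay far apart. It was the widest of the 10 within-family differences computed, for pairs picked by hand. Pairs not computed lay farther apart, such as the homeodomain genes Contig3375 (-2.67) and Contig13 (0.23).

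Of 3 bZIP genes 2 were lower. Contig5252 had -1.64, -1.95 and -1.61 with a mean of -1.74 ± 0.14 (SE, n = 3). Contig8766, similar to ATB2, a bZIP gene whose translation in Arabidopsis responds to sucrose, had -1.18, -1.34 and -1.38 with a mean of -1.30 ± 0.14 on 1 probe. Both genes had narrow ranges over arrays, and Contig5252 was the lower of them on each array. The third, HYP7_01-01-27R_B01, had -1.16, -0.37 and -0.13 with a mean of -0.55 ± 0.22 and was not called. Its largest ratio came from array 1, and its signals were weak, between 73.5 and 227 in both RNAs, with the SP2 signal of array 1 near the negative controls.

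The 2 AP2/ERF members had positive means, but neither was called. Contig11028, an ethylene-responsive element binding protein that the words missed, had a mean of -0.26 ± 0.32 (SE, n = 3) and was not called. TMIRS_117_D04.F, an ethylene responsive element binding factor, had 0.56, 1.83 and 0.55 with a mean of 0.98 ± 0.27 (SE, n = 3), on 1 probe. It was above 0 on all arrays, and array 2 stood far above the others. Contig13751, similar to TINY, a factor of the DREB group that affects cell growth in Arabidopsis, had -0.39, 0.75 and 0.90 with a mean of 0.42 ± 0.26. Here array 1 ran against the others, and without it the test called Contig13751 higher. Without array 3 the test called TMIRS_117_D04.F higher.

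LIM proteins of plants bind DNA or actin filaments. The LIM genes stayed near 0, with array values between -0.54 and 0.19. Contig15981, similar to lim1 of eucalyptus, had a mean of 0.04 ± 0.14 (SE, n = 3) and Contig11492 of -0.32 ± 0.15, and neither was called. The signals of Contig15981 ran from 84.8 to 214.

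Both PHD finger genes were lower. Contig7270 had -2.05, -2.07 and -1.60 with a mean of -1.91 ± 0.16 (SE, n = 3), and its signals were 3676, 4494 and 2063 in the SP2 RNA and 16104, 9147 and 4579 in the SP1 RNA. The gap between both RNAs was seen on each array. Contig9726 had -1.81, -1.17 and -1.21 with a mean of -1.39 ± 0.17. Contig7270 was the lower gene on each array, but the array values overlapped. The call of Contig9726 was lost with median centring, and those of both genes with the deposited ratios.

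Other zinc finger genes went both ways, 2 lower, 1 higher and 2 not called. Contig2271, of the Dof family that occurs only in plants, had -2.08, -1.66 and -2.05 with a mean of -1.93 ± 0.15 (SE, n = 3). Contig15784, with a POZ domain, which joins proteins to each other, had -1.56, -1.62 and -1.02 with a mean of -1.40 ± 0.17. Both were lower on each array and on each of their 4 probes. Contig9529, a B-box gene similar to the salt tolerance gene of Arabidopsis, had -0.78, -0.91 and 0.22 with a mean of -0.49 ± 0.24 and was not called. Contig5190, described only as zinc finger-like, had -1.29, -0.28 and 0.13 with a mean of -0.48 ± 0.27. In both of these array 3 had the opposite sign. The higher gene, TMIRS_072_C09.F, had 1.14, 1.35 and 1.02 with a mean of 1.17 ± 0.14 on 1 probe. Its description comes from a weak match to a chimpanzee zinc finger protein, so that its family is uncertain.

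AT-hooks bind the narrow groove of AT-rich DNA. Contig6521, similar to PF1, a histone-like DNA-binding protein, had the steadiest ratios of the called members, -1.40, -1.43 and -1.42, with a mean of -1.42 ± 0.13 (SE, n = 3). Its probes were less alike, between -2.12 and -0.77. The AT-hook gene Contig14677 had -0.43, 0.13 and 0.61 with a mean of 0.10 ± 0.21 and was not called. The difference between these genes was -1.52 ± 0.53 (SD, n = 3), with no overlap between arrays.

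Descriptions of 7 members name a transcription factor or a DNA-binding protein without a family, and 3 of the 5 members called higher belong here. Contig165, a putative transcription factor, had 1.01, 1.49 and 1.35 with a mean of 1.28 ± 0.15 (SE, n = 3), the highest mean of any member. Its signals were 3026, 4082 and 2637 in the SP2 RNA and 1385, 834 and 759 in the SP1 RNA, with no overlap between them. Contig13954, a putative DNA-binding protein, had 1.40, 1.24 and 1.10 with a mean of 1.25 ± 0.14, and its signals were 15947, 16272 and 12115 in the SP2 RNA against 6568, 3085 and 3560 in the SP1 RNA. All 4 probes of either gene were higher. Contig4224 had 0.26, 1.07 and 1.11 with a mean of 0.81 ± 0.20, short of 2 fold. It was called with all arrays, with the weakest value on array 1, but not without array 2 or without array 3.

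The lower members of this group were R3F_03R_B06, a DNA-binding protein, with -2.14, -1.60 and -1.24 (mean -1.66 ± 0.20, SE, n = 3), Contig14340, of the jumonji proteins that include histone demethylases, with -2.08, -1.81 and -0.89 (-1.59 ± 0.24), and Contig6644, similar to the wheat protein X1, with -1.82, -1.69 and -1.04 (-1.51 ± 0.19). In each of them array 1 was the lowest and array 3 the nearest to 0. Contig14782, named from a weak match, had -0.02, -0.30 and 0.47 and was not called (0.05 ± 0.18).

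The words also took in 2 genes that are not transcription factors by their description. Contig16175, described as TIM9, a small protein of mitochondrial import with a zinc finger-like motif, had 0.66, 1.35 and 1.62 with a mean of 1.21 ± 0.21 (SE, n = 3) and was called higher. Contig11296, an unknown protein matched because its database entry contains the letters AP2, had -0.03, 1.01 and 0.76 with a mean of 0.58 ± 0.22. Without these the members counted 34, with 17 lower, 4 higher and a median of -0.93. The median of all 36 members (-0.52) lay between the uncalled Contig9529 (-0.49) and HYP7_01-01-27R_B01 (-0.55). That of the 34 fell in the gap between HYP7_01-01-27R_B01 and Contig8766 (-1.30), so the median moved while the count of lower members did not.

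A further list of 9 tabulated regulators that the words missed was picked by hand with earlier results of these data known, and it is not complete. Of these 9, 2 were lower, 1 higher and 6 not called, with a median of -0.26, where 8.31% of all genes were lower and 3.95% higher. The counts are a description, as for the members. The lower genes act on chromatin. TMIRS_036_B03.F, an HMG box protein that bends DNA, had -2.57, -2.60 and -2.10 with a mean of -2.42 ± 0.16 (SE, n = 3), and the SNF2 singleton BMGSLB10018S_F06, of the enzymes that move nucleosomes, had -1.68, -1.71 and -0.61 with a mean of -1.33 ± 0.24. Contig288, a chromatin assembly factor, was higher with 0.88, 1.25 and 0.87 (1.00 ± 0.15). Those not called ran from the TCP gene Contig1963 (-0.51 ± 0.14) through the growth-regulating factor Contig1984 (-0.26 ± 0.16) and the TGACG-motif binding factor Contig14454 (0.01 ± 0.15) to the BEL1-related homeodomain gene Contig549 (0.12 ± 0.17), together with the DNA-binding protein Contig18190 (-0.48 ± 0.14). Contig11028, an ethylene-responsive element binding protein, had -0.96, -0.61 and 0.77 with a mean of -0.26 ± 0.32, below 0 where the means of both AP2/ERF members were above it.

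Size of the ratios depended on the array. The 17 members called lower had medians of -2.05, -1.81 and -1.42 on arrays 1, 2 and 3, and array 1 was the lowest in 11 of them (64.7%). All 921 genes called lower had medians of -1.30, -1.06 and -0.81, with array 1 the lowest in 599. The members thus shared the order of the arrays with the genes called lower as a whole.

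Ratios also depended on the probe. The members had 122 probes in all, with 4 probes in 24 members, 3 in 7 and 1 in 5. Of 19 called members with more than 1 probe, 18 had all probes on 1 side of 0, the exception being Contig1695, and of 12 such members not called 8 had. In several genes the ratio grew with the number that the array gives to the probe. The probes of Contig1695 had 0.03, -1.03, -2.11 and -2.26 from probe 1 to probe 4, those of the bZIP gene Contig5252 had -0.55, -1.50, -2.24 and -2.66, and those of the NAM gene Contig13023 had -1.55, -2.43, -2.66 and -2.87. In the KNOX gene Contig3375, by contrast, all 4 probes lay between -2.71 and -2.60.

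Over the 12 members called lower with 4 probes, the medians of probes 1 to 4 were -1.23, -1.66, -1.89 and -2.06, and probe 4 was lower than probe 1 in 11 of them (91.7%). The 664 genes called lower with 4 probes had -0.77, -0.97, -1.20 and -1.33, with probe 4 below probe 1 in 81.0%. Over the 315 such genes called higher the medians were 0.69, 0.85, 1.02 and 1.06, so that ratios moved away from 0 in both directions. The 3 members called higher did not share a clear order, since Contig165 and Contig16175 rose from probe 1 to probe 4 (1.11 to 1.51 and 0.98 to 1.38) while Contig13954 had 1.29 at probe 1 and 1.04 at probe 4. The 9 members not called had 0.14, 0.08, 0.09 and -0.02. Signal moved with the number too, with median log2 signals, averaged over both RNAs, of 8.11, 9.54, 10.79 and 10.77 for the members called lower and of 7.996, 8.53, 9.05 and 9.60 for all genes called lower. The members called lower thus had the order seen in all genes called lower. What the number stands for, such as a position along the transcript or a rank of the design, is not given in the sources used here, and the part of the number or of the signal in the ratios was not tested. For a gene such as Contig1695 the mean over probes thus mixes values near 0 with values past 4-fold.

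**Figure D4:**
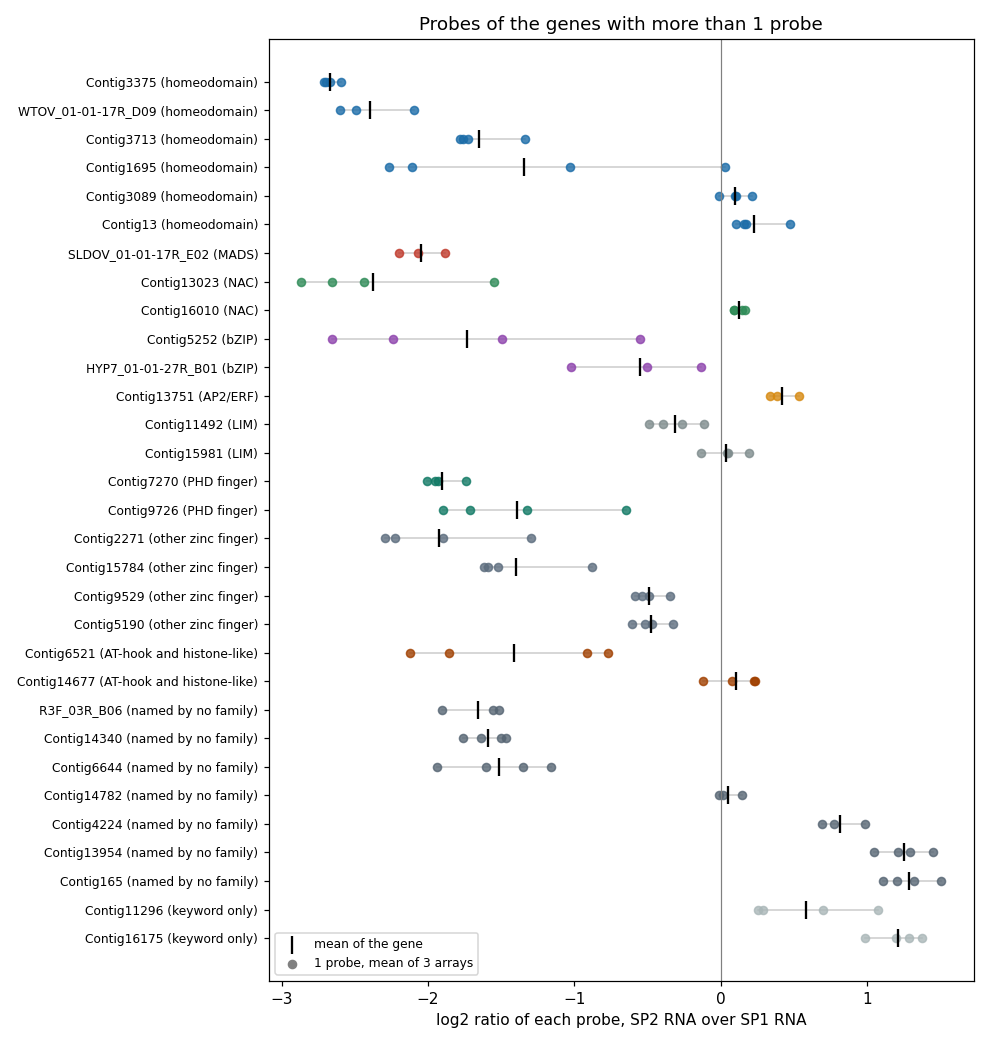
Log2 ratio of each probe (x axis, mean of 3 arrays) for the 31 members with more than 1 probe, with the mean of the gene as a black mark. Probes of Contig3375 lie together near the mean of the gene, whereas those of Contig1695 and Contig5252 spread over about 2 units.

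**Figure D5:**
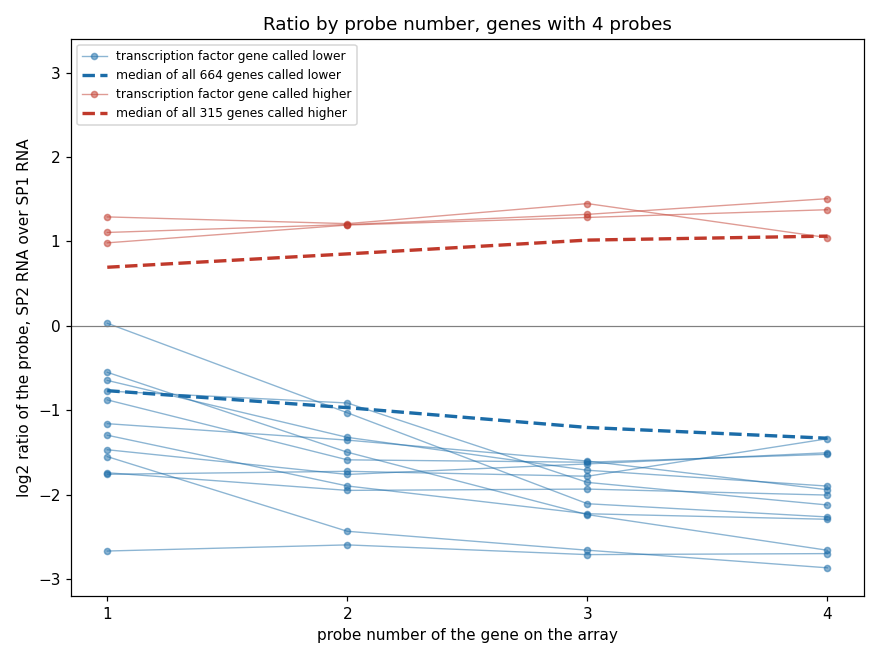
Log2 ratio of SP2 RNA over SP1 RNA (y axis) by the number of the probe (x axis) for called members with 4 probes (thin lines) and as the median of all genes called lower or higher with 4 probes (dashed lines). Ratios of probe 4 lie farther from 0 than those of probe 1 in the dashed lines of both directions and in 11 of the 12 members called lower.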

How the data were processed

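The deposited scanner files give each spot's mean intensity and that of its local background in green and red, quantified by the authors with Agilent Feature Extraction, and a deposited flag of another kind for green spots well above background. The deposited table of the series holds the authors' log2 of background-subtracted red over green. Recomputed and deposited values, each sorted by size within an array, matched for 42034 of 42034 within 1e-08, and the match of single spots was not checked. The table was thus neither centred (medians -0.01, 0.22 and -0.54) nor turned for the dye swap.

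Background was corrected by normexp (offset 50) and ratios normalized by loess within each array in limma 3.58.1 (R 4.3.3, with figures drawn in Python 3.11.15). Probes (38713 of 40372) were kept when green or red stood above background on 2 arrays or more, for red over 2.6 robust SD above the negative controls. Means were taken over the spots of a probe and the probes of a gene, and arrays were turned by the sample codes. Then 11081 genes were tested against 0 with lmFit and eBayes and Benjamini-Hochberg adjustment. This test was checked on simulated data, in which the turning of arrays cancelled, so the check could not bear on their orientation. Spots at 65000 or more counted as saturated. All members, the 9 regulators picked among those that the words missed, and the marker genes are named. Members, lists and alternatives were chosen with earlier results of these data known. Families were read from the descriptions. No sequence of a member was at hand, and none is shown. The alternatives were other centring, background correction, filter, probe summary, orientation and test, and each array left out.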

Additional observations from a re-analysis of the deposited data

How the results depend on the processing

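Each of 22 called members kept its sign in every setting that kept the sample codes. Higher and lower members called numbered 3 and 13 with median centring, 3 and 8 with the deposited log2 ratios, where the median gene stood at 0.25 in place of 0.04, 6 and 17 with plain background subtraction, and 4 and 17 with no filter or the median over probes. The calls shared with the reported setting were 16 with median centring, 11 with the deposited ratios, 22 with plain subtraction and 21 with no filter or the median over probes, where Contig4224 was lost. Both median centring and the deposited ratios lost Contig16175, Contig4224, Contig9726, Contig6644, Contig14340 and SLDOV_01-01-17R_E02, and the deposited ratios also Contig8766, Contig6521, Contig15784, Contig3713 and Contig7270. Without array 1, 2 or 3, 4 to 7 members were higher and 17 to 18 lower, and the median of the members lay between -0.82 and -0.30. Without array 1 Contig11296 and Contig13751 were gained and, over all genes, 1121 were higher and 878 lower in place of 438 and 921. Without array 3 TMIRS_117_D04.F and Contig9529 were gained. The ordinary test without moderation called 0 higher and 0 lower, with 3 and 17 at an unadjusted p under 0.05 (limma: 7 and 18). Family medians moved by more than their spread with the deposited ratios for AT-hook and histone-like genes (-0.38), bZIP (-1.15), LIM (0.014) and PHD finger genes (-1.26), with plain subtraction for bZIP (-1.42) and homeodomain genes (-1.62), and with the median over probes for homeodomain genes (-1.56). The cause was not tested.

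Turned by the dye labels, limma called 0 members higher and 0 lower, with 0 and 2 at an unadjusted p under 0.05. Array 1 then ran against arrays 2 and 3. The median became 0.18 for all members, -0.64 for AP2/ERF, 0.046 for AT-hook and histone-like, 0.52 for bZIP, 0.39 for homeodomain, 0.022 for LIM, 0.28 for MADS, 0.15 for NAC and 0.36 for PHD finger genes. All 22 called members changed sign by construction, because arrays 2 and 3 were turned. They had -0.31 (Contig13954), -0.61 (Contig165), -0.41 (TMIRS_072_C09.F), -0.77 (Contig16175), -0.64 (Contig4224), 0.52 (Contig8766), 0.19 (Contig9726), 0.48 (Contig6521), 0.36 (Contig15784), 0.47 (Contig1695), 0.30 (Contig6644), 0.21 (Contig14340), 0.37 (Contig3713), 0.23 (R3F_03R_B06), 0.64 (Contig5252), 0.54 (Contig7270), 0.17 (SLDOV_01-01-17R_E02), 0.54 (Contig2271), 0.39 (SLDOV_01-01-05R_D03), 0.62 (WTOV_01-01-17R_D09), 0.39 (Contig13023) and 0.50 (Contig3375). No further paired analysis was run, because the reported test already works on the ratio of the RNAs paired on each array, and the arrays form 1 group. The count without the 2 members matched by word alone was added after seeing the data.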
